A study of Spodoptera frugiperda with 3 samples.

Results

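Contigs of 1 assembly cluster can change in opposite directions, and 2 such clusters, CL1048 and CL33, were found in the *S. frugiperda* Sf9 transcriptome after transfection. The compared libraries were from cells transfected with the *pBac[A3-EGFP-A3-Sf-15]* plasmid, in which the *actinA3* promoter drives the snoRNA Sf-15 and which encodes EGFP as well (Sf-15), from cells transfected with an antisense oligonucleotide against Sf-15 (ASO), and from normal, untransfected cells (Sf9). The labels call the snoRNA Bm-15, give passages 15 to 18 and culture at 28 °C for all 3 libraries, and do not give the time of harvest. The amount of plasmid was 2 μg, and for the oligonucleotide the labels give the same amount while the methods of the study give a concentration. There was 1 library per condition, so no value below has a replicate check, and the effect of transfection itself cannot be told apart from that of the Sf-15 level in any difference from Sf9. The libraries held 18.0 M (Sf-15), 19.7 M (ASO) and 19.6 M (Sf9) raw fragments. The unigenes have assembly names only, so markers of ovarian cells were not checked here.

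In a de novo assembly, sequences that share long similar stretches are put into a cluster, and each member of the cluster is a contig. The contigs of a cluster can be splice forms of 1 gene, alleles, close paralogs or separate pieces of a transcript. C/D box snoRNAs such as Sf-15 guide ribose methylation of ribosomal and spliceosomal RNAs, and a few mammalian members are known to affect the splicing of mRNA precursors. A switch between forms of a transcript would appear as opposite changes within a cluster, but related genes that change separately would appear in the same way. No unigene sequence was analysed here, and these possibilities cannot be told apart.

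For each contig the log2 change of Sf-15 over Sf9 and that of ASO over Sf9 were taken after adding 1 FPKM (mapped fragments scaled to the length of the unigene in kb and to M fragments of the library) to each library, and c is their mean. Both changes share the Sf9 library. Contigs with at least 50 raw fragments in a library were kept, which were 5673 of 11120 contigs. A cluster was chosen when it held a contig with c of at least 0.8 and another of at most -0.8. Of 1490 clusters with 2 or more kept contigs, 2 were chosen (0.134%), with 4 contigs in CL1048 and 8 in CL33, 12 of 42041 unigenes in all. All contigs of both clusters were above the fragment minimum. A contig at or above the upper limit was present in 42 of the 1490 clusters and a contig at or below the lower limit in 99. The clusters were chosen by the values of c, which are given as a description without a test.

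The 2 clusters differed in how far inside the limits they lay. In CL1048 the highest contig had a c of 1.54 and the lowest -1.42. In CL33 the highest had 1.58 and the lowest -0.83, close to the limit. Just outside were CL321 (1.29 and -0.67), CL1057 (2.45 and -0.65) and CL3658 (1.40 and -0.64), in each of which the lower side missed the limit. The difference in c between the extreme contigs was 2.95 in CL1048 and 2.41 in CL33, against a median of 0.271 over the 1490 clusters. CL1057 had the largest of these differences (3.10), CL1048 was at rank 2 and CL33 at rank 4. A chosen cluster has a wide difference by the rule itself, so the ranks and the comparison with the median are a description. Over single contigs, those nearest to the upper limit were CL3251.Contig2 (0.80), CL3675.Contig3 (0.81) and CL199.Contig4 (0.81) inside and CL3376.Contig2 (0.80), CL1456.Contig3 (0.80) and CL23.Contig11 (0.79) outside. At the lower limit they were CL47.Contig2 (-0.80), CL832.Contig1 (-0.80) and CL1620.Contig1 (-0.81) inside and CL3102.Contig2 (-0.80), CL2696.Contig1 (-0.79) and CL2079.Contig1 (-0.79) outside.

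**Figure D1:**
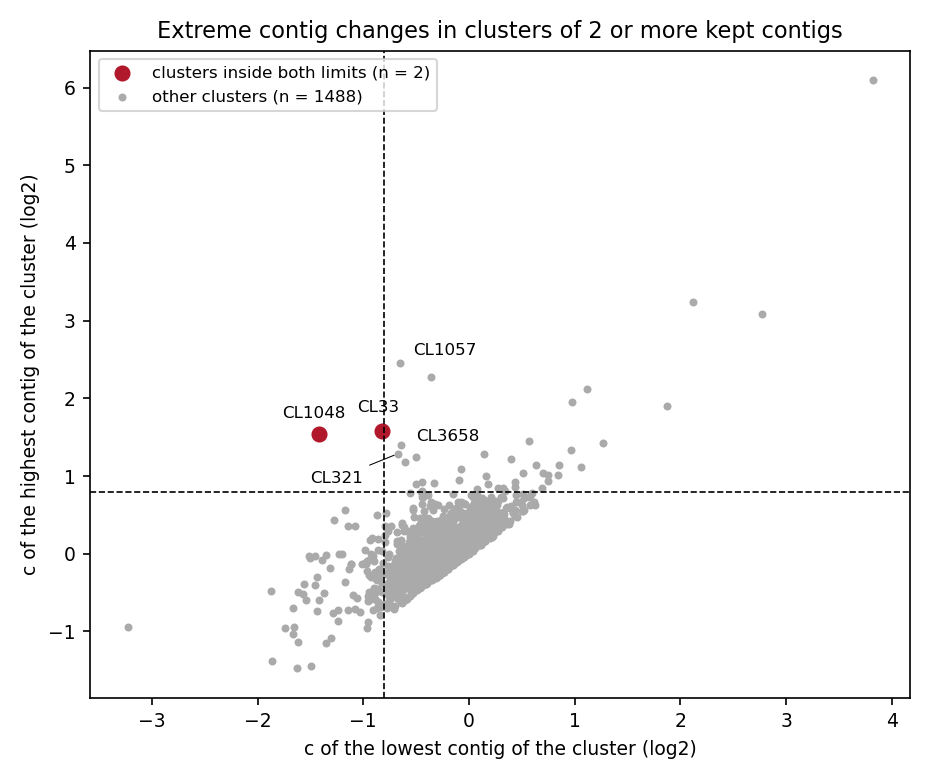
Each point is 1 of 1490 clusters with 2 or more kept contigs, by the c of its lowest contig (horizontal axis, log2) and of its highest contig (vertical axis, log2); c is the mean log2 change of Sf-15 and ASO over Sf9 after adding 1 FPKM, and dashed lines mark -0.8 and 0.8. CL1048 and CL33 (red) lie inside both limits, CL33 at -0.83 just past the lower one, and CL321, CL1057 and CL3658 lie just outside it.

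The choice of CL33 depended on the scaling of the libraries. TMM scaling instead of scaling to all mapped fragments moves the log2 ratios of Sf-15 to Sf9 by 0.25, of ASO to Sf9 by -0.035 and of Sf-15 to ASO by 0.28. With it the c of CL33.Contig6, the lowest contig of CL33, was -0.72, and CL1048 was the only cluster chosen. CL1048 in turn was not chosen when at least 200 fragments in a library were required, because its higher contigs have few fragments, and then CL33 was the only cluster chosen.

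Contigs past a log2 change of 1 in size after adding 1 FPKM were then counted. Of the 12 contigs, 4 were higher in Sf-15 than in Sf9 (0.881% of the 5673 kept contigs were) and 1 was lower (1.9%). In ASO against Sf9, 4 were higher (2.31% of the kept contigs) and 1 was lower (1.66%). The same contigs were past the limit in both, CL1048.Contig3, CL1048.Contig4, CL33.Contig2 and CL33.Contig7 on the higher side and CL1048.Contig1 on the lower side. In ASO against Sf9, CL1048.Contig4 was only just past it (1.003), and with TMM scaling 3 contigs instead of 4 were higher. The rule used these contrasts, so nothing is read from the counts. The median log2 change over the 12 contigs was 0.0089 in Sf-15 against Sf9 and 0.41 in ASO against Sf9, while over the kept contigs it was -0.14 in Sf-15 against Sf9 and 0.092 in ASO against Sf9.

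**Figure D2:**
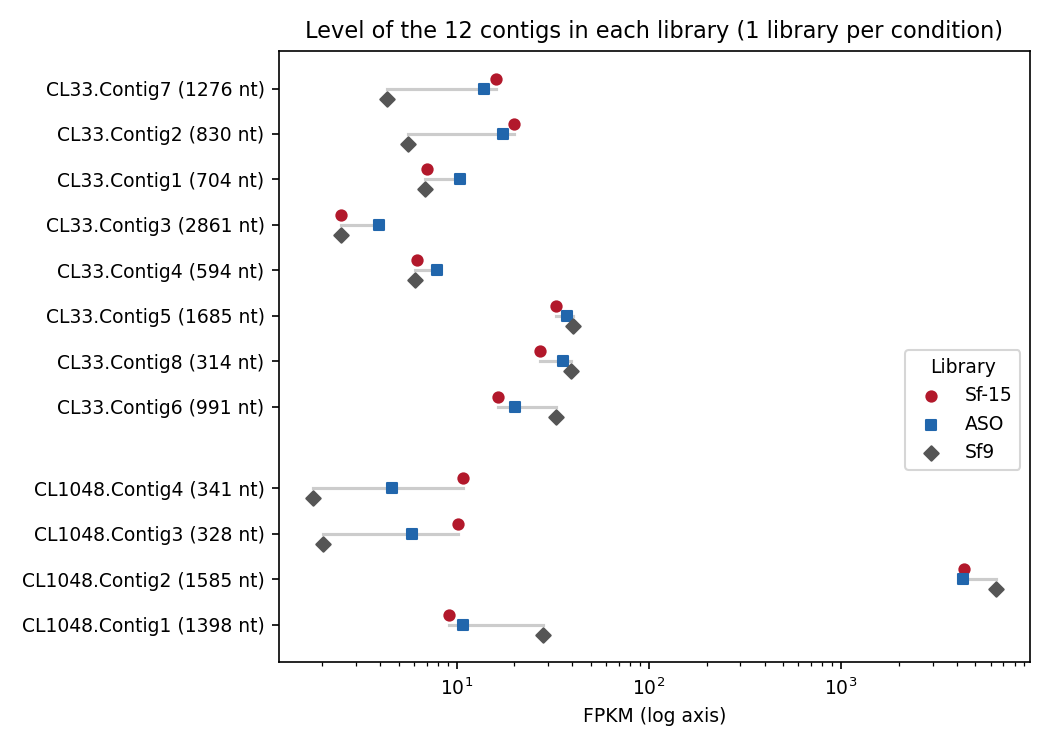
Level of the 12 contigs in FPKM (horizontal log axis), with 1 point for each library, Sf-15 (red circle), ASO (blue square) and Sf9 (grey diamond); the lengths of the contigs are in nt. CL33.Contig7, CL33.Contig2, CL1048.Contig4 and CL1048.Contig3 lie higher in both transfected libraries than in Sf9, CL33.Contig6 and CL1048.Contig1 lie lower, and CL1048.Contig2 lies far to the right in every library.

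CL1048 is dominated by a very abundant contig. CL1048.Contig2 (1585 nt) had 124482 fragments (4360 FPKM) in Sf-15, 135058 (4316 FPKM) in ASO and 197909 (6375 FPKM) in Sf9. It took 0.691% of all fragments in Sf-15, 0.684% in ASO and 1.01% in Sf9, and by raw fragments it was at rank 7 among all unigenes in Sf-15, at rank 7 in ASO and at rank 2 in Sf9. Both transfected libraries were lower than Sf9 and close to each other, with a log2 ratio of FPKM to Sf9 of -0.55 in Sf-15 (exact 95% interval -0.56 to -0.54) and -0.56 in ASO (-0.57 to -0.55). With TMM scaling they were -0.30 in Sf-15 and -0.60 in ASO and so no longer close. These intervals, like all intervals here, cover counting error only.

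CL1048.Contig1 (1398 nt), of a similar length, was the lowest contig by c. It had 230 fragments (9.13 FPKM) in Sf-15, 299 (10.8 FPKM) in ASO and 773 (28.2 FPKM) in Sf9. The level was thus low in both transfected libraries and high in Sf9, at 0.323 times the Sf9 level in Sf-15 and 0.384 times in ASO. The log2 ratio of FPKM was -1.63 in Sf-15 (exact 95% interval -1.85 to -1.41) and -1.38 in ASO (-1.58 to -1.19). As a share of the fragments of these 2 contigs together, it made up 0.184% in Sf-15 (0.161% to 0.21%), 0.221% in ASO (0.197% to 0.247%) and 0.389% in Sf9 (0.362% to 0.417%).

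The higher contigs of CL1048 were short and of low abundance. CL1048.Contig3 (328 nt) had 60 fragments (10.2 FPKM) in Sf-15, 38 (5.87 FPKM) in ASO and 13 (2.02 FPKM) in Sf9. CL1048.Contig4 (341 nt) had 66 fragments (10.7 FPKM) in Sf-15, 31 (4.604 FPKM) in ASO and 12 (1.797 FPKM) in Sf9. Both were highest in Sf-15, lower in ASO and lowest in Sf9. For CL1048.Contig3 the log2 ratio of FPKM to Sf9 was 2.33 in Sf-15 (1.45 to 3.32) and 1.54 in ASO (0.60 to 2.57). For CL1048.Contig4 it was 2.58 in Sf-15 (1.68 to 3.604) and 1.36 in ASO (0.36 to 2.45). With 12 and 13 fragments in Sf9 the intervals are wide, and the sizes of the changes are known only roughly.

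The proportion of the 2 short contigs to each other was known only roughly. CL1048.Contig4 had 52.4% of the fragments of this pair in Sf-15 (exact 95% interval 43.3% to 61.3%), 44.9% in ASO (32.9% to 57.4%) and 48.0% in Sf9 (27.8% to 68.7%). A change of the proportion was not detectable at this depth. Pairs of contigs were set side by side in this way after their values were seen.

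The CL33 cluster held contigs of moderate level, of which CL33.Contig2 and CL33.Contig7 were higher after both transfections. CL33.Contig2 (830 nt) had 297 fragments (19.9 FPKM) in Sf-15, 287 (17.5 FPKM) in ASO and 91 (5.60 FPKM) in Sf9. CL33.Contig7 (1276 nt) had 369 fragments (16.1 FPKM) in Sf-15, 349 (13.9 FPKM) in ASO and 108 (4.32 FPKM) in Sf9. Without TMM scaling the transfected libraries lay close together and well above Sf9 in both contigs. The level of CL33.Contig2 was 3.55 times that of Sf9 in Sf-15 and 3.13 times in ASO, with log2 ratios of 1.83 in Sf-15 (exact 95% interval 1.48 to 2.18) and 1.65 in ASO (1.30 to 2.00). The level of CL33.Contig7 was 3.71 times that of Sf9 in Sf-15 and 3.21 times in ASO, with log2 ratios of 1.89 in Sf-15 (1.58 to 2.22) and 1.68 in ASO (1.37 to 2.01). With TMM scaling the transfected libraries were less close. The log2 ratios were then 2.08 in Sf-15 and 1.61 in ASO for CL33.Contig2, and 2.14 in Sf-15 and 1.65 in ASO for CL33.Contig7. CL33.Contig7 had 55.4% of the fragments of this pair in Sf-15 (51.5% to 59.2%), 54.9% in ASO (50.9% to 58.8%) and 54.3% in Sf9 (47.1% to 61.3%), so that their proportion was nearly level over the libraries.

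CL33.Contig6 (991 nt) was the only contig of CL33 past the lower limit. It had 292 fragments (16.4 FPKM) in Sf-15, 393 (20.1 FPKM) in ASO and 639 (32.9 FPKM) in Sf9. Both transfected libraries were lower than Sf9, and its log2 ratio of FPKM to Sf9 was -1.01 in Sf-15 (-1.21 to -0.81) and -0.71 in ASO (-0.90 to -0.53). In Sf-15 its level was near those of CL33.Contig2 and CL33.Contig7, while in Sf9 it was far above them. The ratio of the FPKM of CL33.Contig2 to that of CL33.Contig6 was 1.21 in Sf-15, 0.872 in ASO and 0.17 in Sf9. The ratio of CL33.Contig7 to CL33.Contig6 was 0.981 in Sf-15, 0.69 in ASO and 0.131 in Sf9. These ratios are within a library and do not depend on the scaling.

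The other 5 contigs of CL33 stood between the limits, in 2 patterns. CL33.Contig5 (1685 nt), which had the most fragments in the cluster, had 1001 (33.0 FPKM) in Sf-15, 1255 (37.7 FPKM) in ASO and 1328 (40.2 FPKM) in Sf9. CL33.Contig8 (314 nt) had 154 fragments (27.2 FPKM) in Sf-15, 221 (35.6 FPKM) in ASO and 241 (39.2 FPKM) in Sf9. Both were lowest in Sf-15, with a log2 ratio to Sf9 of -0.29 (-0.41 to -0.17) for CL33.Contig5 and -0.53 (-0.83 to -0.23) for CL33.Contig8, while their intervals for ASO over Sf9 included 0. With TMM scaling CL33.Contig5 was lowest in ASO instead, with a log2 ratio to Sf9 of -0.038 in Sf-15 and -0.13 in ASO, and CL33.Contig8 stayed lowest in Sf-15, with -0.28 in Sf-15 and -0.17 in ASO.

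The remaining contigs had their highest values in ASO. CL33.Contig1 (704 nt) had 89 fragments (7.02 FPKM) in Sf-15, 144 (10.4 FPKM) in ASO and 95 (6.89 FPKM) in Sf9. CL33.Contig3 (2861 nt), the longest contig of the cluster, had 129 fragments (2.50 FPKM) in Sf-15, 223 (3.95 FPKM) in ASO and 141 (2.52 FPKM) in Sf9. CL33.Contig4 (594 nt) had 67 fragments (6.26 FPKM) in Sf-15, 93 (7.93 FPKM) in ASO and 71 (6.10 FPKM) in Sf9. In Sf-15 these 3 contigs were near the Sf9 level, with log2 ratios of 0.027 for CL33.Contig1, -0.0077 for CL33.Contig3 and 0.037 for CL33.Contig4. With TMM scaling these were 0.28 for CL33.Contig1, 0.24 for CL33.Contig3 and 0.29 for CL33.Contig4. In ASO the log2 ratio to Sf9 was 0.59 for CL33.Contig1 (0.20 to 0.98), 0.65 for CL33.Contig3 (0.34 to 0.96) and 0.38 for CL33.Contig4, whose interval (-0.083 to 0.84) included 0. CL33.Contig1 had 40.8% of its fragments and those of CL33.Contig3 together in Sf-15, 39.2% in ASO and 40.3% in Sf9, again nearly level.

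The composition of the clusters was described by the share of the fragments of each contig, which is also free of the scaling between libraries. The higher and lower contigs were chosen for their difference from Sf9, so that a difference of their shares from Sf9 is set by the choice and is a description. In CL33, CL33.Contig2 and CL33.Contig7 together made up 27.8% of the fragments in Sf-15 (exact 95% interval 26.0% to 29.6%), 21.5% in ASO (19.98% to 22.97%) and 7.33% in Sf9 (6.38% to 8.38%). CL33.Contig6 made up 12.2% in Sf-15 (10.9% to 13.6%), 13.3% in ASO (12.1% to 14.5%) and 23.5% in Sf9 (22.0% to 25.2%). CL33.Contig5 was the largest part in every library, with 41.7% in Sf-15, 42.3% in ASO and 48.9% in Sf9. By FPKM, which takes out the length of the contigs, CL33.Contig2 and CL33.Contig7 together made up 28.0% of the cluster in Sf-15, 21.3% in ASO and 7.20% in Sf9.

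In CL1048 the shares of the higher contigs were very small. CL1048.Contig3 and CL1048.Contig4 together made up 0.101% of the fragments of the cluster in Sf-15 (0.0841% to 0.12%), 0.051% in ASO (0.0396% to 0.0645%) and 0.0126% in Sf9 (0.00814% to 0.0186%). CL1048.Contig2 made up 99.7% in Sf-15, 99.7% in ASO and 99.6% in Sf9. Without CL1048.Contig2, a setting chosen after its level was seen, the 2 higher contigs made up 35.4% in Sf-15 (30.4% to 40.6%), 18.8% in ASO (14.9% to 23.1%) and 3.13% in Sf9 (2.04% to 4.59%). CL1048.Contig1 held the rest, 64.6% in Sf-15, 81.2% in ASO and 96.9% in Sf9.

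**Figure D3:**
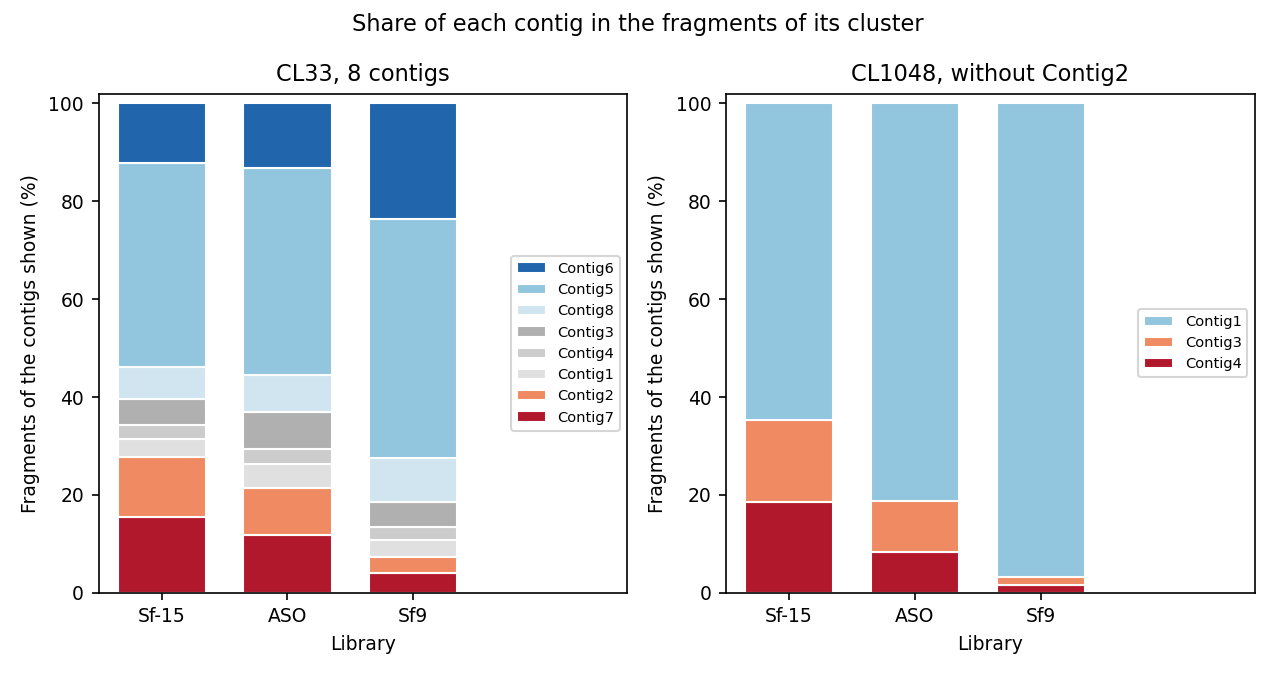
Stacked bars give the share of each contig (%) in the raw fragments of CL33 (left, 8 contigs) and of CL1048 without CL1048.Contig2 (right, 3 contigs), for the Sf-15, ASO and Sf9 libraries. The higher contigs (red and orange) take 27.8% of CL33 in Sf-15, 21.5% in ASO and 7.33% in Sf9, and 35.4% in Sf-15, 18.8% in ASO and 3.13% in Sf9 of CL1048 without CL1048.Contig2.

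The summed level of CL33 differed from Sf9 far less than its extreme contigs did. It was 128 FPKM in Sf-15, 147 FPKM in ASO and 138 FPKM in Sf9, with log2 ratios to Sf9 of -0.10 in Sf-15 and 0.094 in ASO. Over the 1490 clusters with 2 or more kept contigs, the median log2 ratio of the sum was -0.24 for Sf-15 over Sf9, with quartiles of -0.45 and -0.012, and 0.038 for ASO over Sf9, with quartiles of -0.25 and 0.36. The sum of CL33 was within the quartiles in both. CL1048 summed to 4390 FPKM in Sf-15, 4337 FPKM in ASO and 6407 FPKM in Sf9, and its log2 ratios of -0.55 in Sf-15 and -0.56 in ASO, both below the lower quartile, are those of CL1048.Contig2. Without that contig CL1048 summed to 30.0 FPKM in Sf-15, 21.3 FPKM in ASO and 32.1 FPKM in Sf9. In raw fragments, not scaled to the library totals, CL1048.Contig1 differed from Sf9 by -543 in Sf-15 and -474 in ASO. CL1048.Contig3 differed by 47 in Sf-15 and 25 in ASO, and CL1048.Contig4 by 54 in Sf-15 and 19 in ASO. In raw fragments the deficit of the lowest contig was thus larger than the surplus of the higher contigs. Raw fragments also depend on length, and CL1048.Contig1 (1398 nt) is much longer than the higher contigs (328 and 341 nt). In FPKM, which takes out the length, the sum without CL1048.Contig2 was 30.0 in Sf-15 against 32.1 in Sf9. By that measure the deficit and the surplus were close in Sf-15, while in ASO (21.3 FPKM) the deficit stayed larger. The balance in Sf-15 depends on the scaling. Its log2 ratio to Sf9 of -0.094 is smaller in size than the shift of 0.25 by TMM scaling, which goes the other way. In CL33 the raw-fragment deficit of CL33.Contig6 alone was smaller than the surplus of CL33.Contig2 and CL33.Contig7 together. This leaves out the contigs between the limits, of which CL33.Contig5 differed from Sf9 by -327 in Sf-15 and -73 in ASO. Over all its contigs CL33 had 2398 raw fragments in Sf-15, 2965 in ASO and 2714 in Sf9. The whole cluster thus had fewer than Sf9 in Sf-15 and more in ASO. CL33.Contig6 differed from Sf9 by -347 in Sf-15 and -246 in ASO. CL33.Contig2 differed by 206 in Sf-15 and 196 in ASO and CL33.Contig7 by 261 in Sf-15 and 241 in ASO.

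The comparison of Sf-15 with ASO, which asks whether the contigs differed between overexpression and repression, was not itself a part of the rule. The fragment minimum was not independent of it. CL1048.Contig3 and CL1048.Contig4 reached 50 fragments in Sf-15 only, as did 25 of the 5673 kept contigs (0.441%), so a higher level in Sf-15 than in ASO was favoured for these contigs by the choice, and nothing is read from the counts of higher contigs below. With a minimum of 20 fragments, which both contigs also reached in ASO, CL1048 was chosen as well. Each unigene was tested by a two-sided exact binomial test of its fragments against those of the library, and p-values were adjusted by Benjamini-Hochberg over 42002 unigenes. The test compares these 2 libraries and not the conditions. By the call rule (a log2 change of at least 1 in size after adding 1 FPKM and an adjusted p of at most 0.001), 1 of the 12 contigs was higher in Sf-15, against 0.212% of the kept contigs and 0.186% of all unigenes tested, and 0 were lower, against 1.15% and 1.31%. At an unadjusted p under 0.05, 3 contigs were higher, against 4.14% of the kept contigs and 4.53% of all unigenes tested, and 5 were lower, against 43.9% and 27.8%.

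The called contig was CL1048.Contig4, with 66 fragments in Sf-15 and 31 in ASO. Its log2 change after adding 1 FPKM was 1.07, close to the limit of 1, and its log2 ratio of FPKM was 1.22 (exact 95% interval 0.59 to 1.89, adjusted p = 0.000613 in the exact binomial test). In the exact test of edgeR, with 0.2 assumed as the biological coefficient of variation, the adjusted p was 0.521, and with 0.4 it was 1.0. The other short contig, CL1048.Contig3, had a log2 ratio of 0.79 (0.18 to 1.42, adjusted p = 0.040 in the exact binomial test), short of the call. Both contigs were kept through Sf-15 only, so the choice favoured this direction and nothing is read from their p-values.

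With no limit on the size of the change, 3 of the 12 contigs were higher in Sf-15 at an adjusted p of at most 0.05, against 2.57% of the kept contigs, and 4 were lower, against 34.5%. The higher ones were CL1048.Contig2 and the contigs kept through Sf-15 only, CL1048.Contig3 and CL1048.Contig4. For CL1048.Contig2 the log2 ratio was only 0.015 (0.0034 to 0.026), at an adjusted p of 0.047. The lower ones were CL33.Contig1, CL33.Contig3, CL33.Contig5 and CL33.Contig6, and their share was near that of all kept contigs. The strongest was CL33.Contig3 with a log2 ratio of -0.66 (-0.98 to -0.34, adjusted p = 0.000322 in the exact binomial test). With TMM scaling 5 contigs were higher, with CL33.Contig2 and CL33.Contig7 added, against 11.7% of the kept contigs, and 0 were lower, against 12.2%. Of the 4 lower contigs, CL33.Contig5 then had a positive value (a log2 change of 0.087 after adding 1 FPKM), and the other 3 stayed below 0 without reaching that limit on p. In the exact test of edgeR, with 0.2 assumed, 0 contigs were higher at an adjusted p of at most 0.05, against 0.0353% of the kept contigs, and 0 were lower, against 0%. Without TMM scaling the log2 ratio was 0.18 for CL33.Contig2 (-0.057 to 0.42) and 0.21 for CL33.Contig7 (-0.0025 to 0.43).

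**Figure D4:**
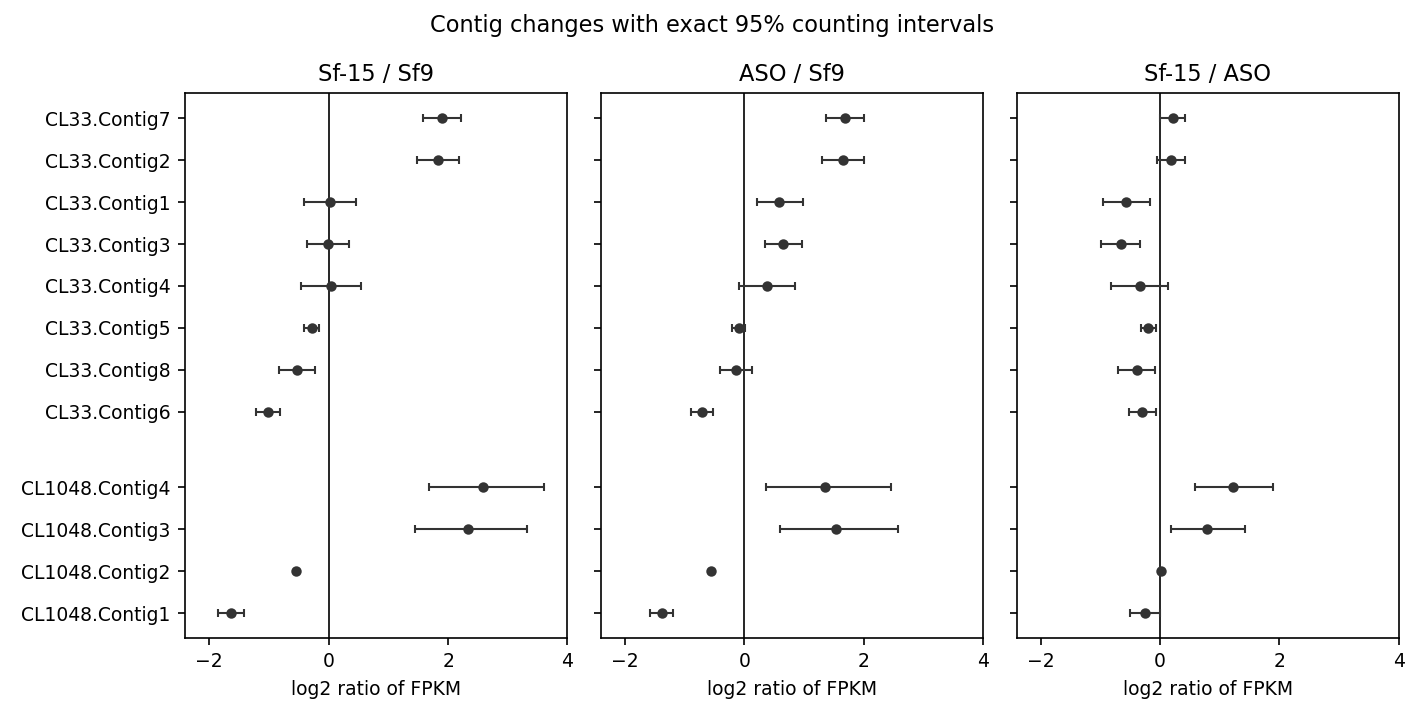
Log2 ratio of FPKM (horizontal axis) of the 12 contigs for Sf-15 over Sf9, ASO over Sf9 and Sf-15 over ASO, with bars for the exact 95% interval of the ratio, counting error only. The 4 contigs that are higher in both comparisons with Sf9 lie near or above 0 for Sf-15 over ASO, where CL1048.Contig4 (1.22) is farthest to the right. CL1048.Contig3 and CL1048.Contig4 were kept through Sf-15 only, which favours a higher value there.

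The lengths of the contigs and the sizes of the clusters were described last. The 12 contigs were 314 to 2861 nt long, with a median of 910.5 nt against 1695 nt for the 5673 kept contigs. In CL1048 the higher contigs (328 and 341 nt) were much shorter than the lower ones (1398 and 1585 nt), whereas in CL33 the higher contigs (830 and 1276 nt) were on either side of the lowest one (991 nt). The number of kept contigs depends on the fragment minimum and bears on the chance of a cluster to be chosen. Both clusters held more of them than the median cluster, which had 2; at least 4 were present in 200 of the 1490 clusters and at least 8 in 47. No 2 of the 12 contigs had equal fragments in all libraries, which was the case for 57 of the 5673 kept contigs, so counts copied between contigs were not seen here. Whether fragments were shared in part between contigs, such as CL1048.Contig2 and the far less abundant contigs of its cluster, was not tested. None of the 12 contigs was among the 21 unigenes that the study lists for apoptosis, 6 of which are contigs of clusters.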

How the data were processed

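The authors trimmed the Illumina HiSeq reads and built unigenes from them by de novo assembly (Trinity, TGICL, Phrap). The aligner and the counter are not given in the sources used here. The deposited tables, 1 for any 2 libraries, hold the authors' counts (raw fragments of each unigene) and the FPKM, which were used here, and the authors' own log2 ratios, p-values and false discovery rates, which were not. The tables were joined by unigene name, and a unigene absent from a table was taken as 0. Names matching the reference gene table numbered 0, so no positions or sequences are given.

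Members and lists were chosen with earlier results of these data known. The contrasts with Sf9 are described without a test. Sf-15 against ASO was tested with the exact binomial test over all unigenes with a fragment in Sf-15 or ASO. The text names both clusters with all their contigs, the clusters and contigs next to the limits, and member contigs called in that test. Intervals of log2 ratios and shares are exact (Clopper-Pearson, 95%). The alternatives were other amounts added, fragment minimums, limits and scalings, and the exact test of edgeR at an assumed coefficient of variation. The exact binomial test and edgeR's exact test were tested on simulated data. Python 3.11.15, numpy 2.4.6, scipy 1.17.1, pandas 2.3.3, matplotlib 3.10.9, R 4.3.3 and edgeR 4.0.16 were used.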

Additional observations from a re-analysis of the deposited data

How the results depend on the processing

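No paired analysis was possible because there is a single library for every condition. The rule gave 2 clusters with 12 contigs. Adding 0.1 FPKM gave 4 clusters with 25 contigs, a limit of 0.5 on c gave 14 with 125, and at least 200 fragments gave 1 with 6. Adding 5 FPKM, a limit of 1, both changes past the limit, TMM scaling and median-of-ratios scaling each gave 1 with 4, which was CL1048. With at least 20 fragments, or with contigs of equal fragments counted once, the clusters were again CL1048 and CL33, and with no filter CL478 was added. With 0.1 FPKM added, 2 contigs instead of 1 were past the fold on the lower side in Sf-15 against Sf9. In Sf-15 against ASO, edgeR's exact test with an assumed coefficient of variation of 0.2 or 0.4 called 0 contigs, where over all unigenes it called 6 and 4 as higher. At an adjusted p of at most 0.05 with no limit on the change, TMM and median-of-ratios scaling each gave 5 higher and 0 lower contigs, against 11.7% and 12.2% of the kept contigs. The exact test of edgeR gave 0 and 0, against 0.0353% higher and 0% lower with a coefficient of 0.2 and 0% in both directions with 0.4. With TMM scaling the summed level of CL1048 had log2 ratios of -0.30 (Sf-15 over Sf9), -0.60 (ASO over Sf9) and 0.30 (Sf-15 over ASO), and that of CL33 had 0.15 for Sf-15 over Sf9 and a reversed 0.086 for Sf-15 over ASO, against -0.20 without it. These shifts come from the scaling itself. Without CL1048.Contig2, chosen after seeing the data, and without TMM scaling, the ratios of CL1048 were -0.094 (Sf-15 over Sf9), -0.59 (ASO over Sf9) and 0.50 (Sf-15 over ASO). Its higher contigs then took 35.4% in Sf-15, 18.8% in ASO and 3.13% in Sf9. With 12 to 66 fragments, CL1048.Contig3 and CL1048.Contig4 are the least precise values.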
